A study of Mus musculus with 3 samples.

Results

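The Dlx1-Dlx2 and Dlx5-Dlx6 gene pairs, with the long noncoding RNAs (lncRNAs) that overlap or flank them, were described in neurospheres grown from the subventricular zone. The mice were C57BL/6, male and wild type (WT). The 6 genes are Dlx1, Dlx2, Dlx1as, Dlx5, Dlx6 and Dlx6os1. Members were the deposited regions inside a fixed window around each pair on genome build mm9. The Dlx1-Dlx2 window was chr2:71330000-71430000 (100 kb) and the Dlx5-Dlx6 window was chr6:6740000-6860000 (120 kb). They held 6 of the 21998 H3K4me3 regions and 32 of the 117512 H3K27me3 regions of the series. Neurospheres are free-floating spheres of cells seeded by neural stem cells, and the subventricular zone is the layer along the lateral ventricles where such cells persist in the adult mouse brain. The series asked what chromatin state marks lncRNA promoters in these cells. It holds 3 samples, which are 1 chromatin immunoprecipitation sequencing (ChIP-seq) library with an antibody to H3K4me3, 1 with an antibody to H3K27me3 and 1 of input DNA. The input was not analysed here, the age of the mice is not given in the sources used here, and with 1 library per mark no value below has a replicate error and no test was made.

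Dlx genes encode homeodomain transcription factors. Dlx1, Dlx2, Dlx5 and Dlx6 are known for driving the differentiation of GABAergic interneurons in the ventral forebrain, and the subventricular zone makes interneurons for the olfactory bulb. Each pair lies in convergent orientation and shares enhancers between its genes. Dlx1as is an antisense transcript of the Dlx1-Dlx2 pair. Dlx6os1, also called Evf2, is transcribed from the Dlx5-Dlx6 pair and is known in mouse to act on the enhancers and expression of that pair. H3K4me3, trimethylation of histone H3 at lysine 4, is found at active and poised promoters. H3K27me3, trimethylation at lysine 27, is laid down by Polycomb repressive complex 2 and is common at developmental genes that are silent or held ready. A promoter with both marks is often called bivalent, but these libraries are from bulk cultures, in which the marks of an overlap may come from different cells or alleles.

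Promoter sequences of the loci are shown first, because H3K4me3 is a mark of promoters and is known to favour promoters rich in the dinucleotide CpG. The RefSeq promoter table on build GRCm38.p6 had entries for 3 of the 6 genes, namely Dlx1, Dlx2 and Dlx6os1, with 2 start sites for Dlx6os1. Each entry holds 250 bases before and 50 bases after a start site. They are given 5′ to 3′ on the gene's strand, in lower case, with each CpG and each TAATTA in capitals. TAATTA is a core that many homeodomain proteins, Dlx proteins among them, can bind. The positions are GRCm38.p6 and were not joined to the mm9 regions.
Dlx1 (chr2:71529195-71529494, plus strand): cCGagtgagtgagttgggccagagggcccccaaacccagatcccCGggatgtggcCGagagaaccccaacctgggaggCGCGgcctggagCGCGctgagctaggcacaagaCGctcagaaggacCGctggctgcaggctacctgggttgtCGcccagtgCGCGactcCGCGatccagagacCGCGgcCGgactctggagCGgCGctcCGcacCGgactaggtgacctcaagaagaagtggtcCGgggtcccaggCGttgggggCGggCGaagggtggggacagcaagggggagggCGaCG
Dlx2 (chr2:71546705-71547004, minus strand): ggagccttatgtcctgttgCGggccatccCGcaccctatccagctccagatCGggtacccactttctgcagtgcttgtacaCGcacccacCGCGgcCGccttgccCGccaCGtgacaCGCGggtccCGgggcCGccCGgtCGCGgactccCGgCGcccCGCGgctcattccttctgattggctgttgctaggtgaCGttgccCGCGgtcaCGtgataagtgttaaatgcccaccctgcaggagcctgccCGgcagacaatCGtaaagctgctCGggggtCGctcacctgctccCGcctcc
Dlx6os1, higher start (chr6:6869484-6869783, minus strand): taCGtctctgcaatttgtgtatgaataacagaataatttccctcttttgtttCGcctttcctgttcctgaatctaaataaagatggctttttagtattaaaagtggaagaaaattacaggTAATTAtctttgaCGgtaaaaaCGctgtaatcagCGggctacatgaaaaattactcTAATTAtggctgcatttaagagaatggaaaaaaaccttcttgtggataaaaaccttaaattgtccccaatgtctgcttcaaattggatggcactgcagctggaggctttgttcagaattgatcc
Dlx6os1, lower start (chr6:6861634-6861933, minus strand): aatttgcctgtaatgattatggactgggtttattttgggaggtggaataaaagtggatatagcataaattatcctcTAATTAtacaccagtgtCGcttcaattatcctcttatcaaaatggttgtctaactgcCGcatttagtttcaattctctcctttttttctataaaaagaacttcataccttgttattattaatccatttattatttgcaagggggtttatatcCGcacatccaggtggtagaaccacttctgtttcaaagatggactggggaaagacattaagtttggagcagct

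The Dlx1 and Dlx2 promoters held more CpG than those of the lncRNA Dlx6os1. Dlx5 and Dlx6 had no entry, so the coding promoters of the pairs could not be compared. The Dlx1 promoter held 27 CpG in its 300 bases and the Dlx2 promoter held 29. The Dlx6os1 promoters held 5 at the higher start and 3 at the lower start, and the median over all 32851 promoters of the table was 7. Fewer CpG than in the Dlx1 promoter were counted in 84.5% of these promoters, and fewer than in the Dlx2 promoter in 87.1%. For Dlx6os1 the shares were 38.0% at the higher start and 23.3% at the lower start. GC content was 69.3% for Dlx1 and 66.3% for Dlx2, against 35.7% and 35.3% for the Dlx6os1 starts. TAATTA, which reads the same on both strands, was absent from the windows of Dlx1 and Dlx2. It occurred at bases 121 and 177 of the higher Dlx6os1 start and at base 77 of the lower one, counted from 1 at the 5′ end. Of all promoters 5.29% held it at least 1 time and 0.490% at least 2 times. A match of letters does not show that a factor binds there.

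Along the chromosome the GRCm38.p6 gene table lists Metap1d, Dlx1, Dlx1as and Dlx2 as neighbours in rising order, followed by the lncRNA Gm36857. On chromosome 6 it lists Dlx6os1, Dlx6, Dlx6os2 and Dlx5, followed by Gm22155 and Sdhaf3. Dlx6os2 is a further lncRNA of the pair that is not among the 6 genes. Gene positions on mm9 were not used here, so no region below is tied to a single gene or start site. Regions are numbered within their window from the lowest coordinate, and below and above mean towards lower and higher coordinates.

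Each window held 3 H3K4me3 regions, but those of the Dlx1-Dlx2 window were wider by the median and scored higher. The median width was 2488 bp in the Dlx1-Dlx2 window and 827 bp in the Dlx5-Dlx6 window, a ratio of 3.01. When H3K4me3 regions with gaps of up to 1000 bp were joined, the medians were 2488 bp at Dlx1-Dlx2 and 1487 bp at Dlx5-Dlx6, a ratio of 1.67. Summed over the window, H3K4me3 regions held 7417 bp at Dlx1-Dlx2 and 2923 bp at Dlx5-Dlx6. The first Dlx1-Dlx2 region (chr2:71366458-71368945) was 2488 bp wide and the second (chr2:71381932-71385542) 3611 bp. They lay 12986 bp apart. Their widths passed those of 65.3% and 88.9% of all H3K4me3 regions. The third (chr2:71418691-71420008) was 1318 bp wide and lay 33148 bp above the second.

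At Dlx5-Dlx6 the first and second H3K4me3 regions formed a close pair with 51 bp between them. They were 693 bp (chr6:6812457-6813149) and 827 bp wide (chr6:6813201-6814027), and only 4.31% and 9.61% of all H3K4me3 regions were narrower. The third (chr6:6831170-6832572) was 1403 bp wide and started 17142 bp above the close pair. Joined across the 51 bp, the pair measured 1571 bp, which was still narrower than the first and second Dlx1-Dlx2 regions and wider than the third. The nearest H3K4me3 regions outside the groups lay 74006 bp below and 30881 bp above the Dlx1-Dlx2 regions, and 283219 bp below and 72813 bp above the Dlx5-Dlx6 regions. The widths overlapped between the windows. The difference in medians was 1661 bp as called and 1001 bp with the close pair joined.

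**Figure D1:**
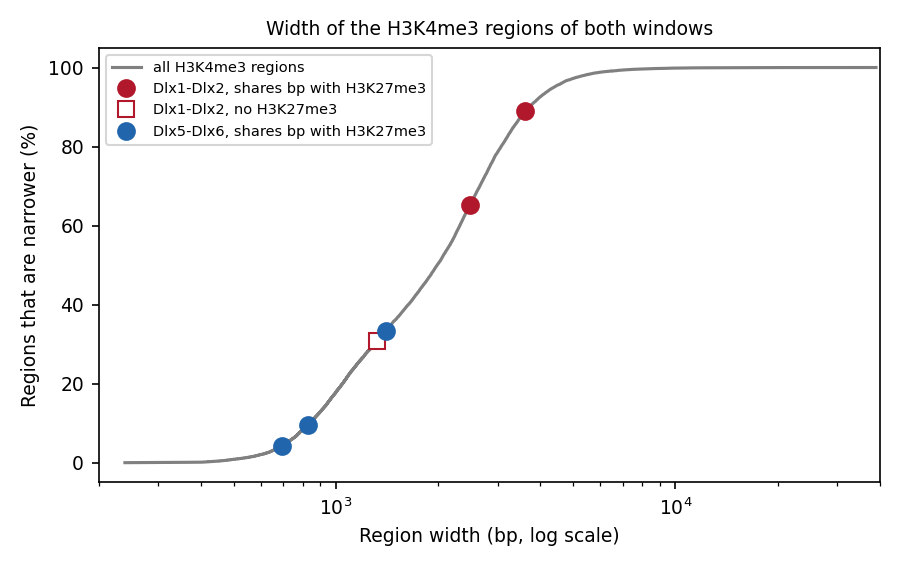
Width of each H3K4me3 region of both windows (x axis, bp, log scale) against the percentage of all 21998 H3K4me3 regions that are narrower (y axis); the grey line is the whole list, filled points share base pairs with H3K27me3 and the open square does not. The first and second Dlx1-Dlx2 regions, at 2488 and 3611 bp, sit right of the other 4, which run from 693 to 1403 bp.

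The deposited score of a region has no stated scale and is compared only within its list. Scores pile up at 3100, which together with anything above it is called the top score. The first and second Dlx1-Dlx2 regions were at the top score, and the third had a score of 1541.78. The Dlx5-Dlx6 regions had scores of 129.29, 281.35 and 569.02. In all, 2 of 3 Dlx1-Dlx2 regions and 0 of 3 Dlx5-Dlx6 regions reached the top score, against 52.6% of the whole H3K4me3 list. Every Dlx1-Dlx2 score was thus above every Dlx5-Dlx6 score, and the highest at Dlx5-Dlx6 exceeded only 32.5% of the list.

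H3K27me3 lay on 2 of 3 H3K4me3 regions at Dlx1-Dlx2 and on 3 of 3 at Dlx5-Dlx6, when at least 1 shared base pair counted as overlap. Over the whole list the share was 33.5%. Among regions at the top score, to which both overlapping Dlx1-Dlx2 regions belong, it was 23.6%. Among regions below it, to which all of the Dlx5-Dlx6 regions belong, it was 44.5%. H3K27me3 covered the whole H3K4me3 region in 1 of 3 cases at Dlx1-Dlx2 and 3 of 3 at Dlx5-Dlx6, against 9.55% of the list. The wholly covered regions of the list numbered 2101 and had a median width of 1393 bp. Only 299 of them were at the top score, which 52.6% of the list reached. Full cover was thus more common below the top score, where all of the Dlx5-Dlx6 regions lie. Counted in base pairs, 68.0% of H3K4me3 sequence at Dlx1-Dlx2 and 100% at Dlx5-Dlx6 lay in H3K27me3 regions. With 3 regions in each window these shares are counts and cannot show that the pairs differ. At Dlx5-Dlx6, 2 of the 3 are the close pair 51 bp apart, which would count as 1 region if joined.

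The 3 Dlx1-Dlx2 regions were in 3 different states. The first lay wholly inside a top-scoring H3K27me3 region of 6667 bp (chr2:71364912-71371578), which reached 1546 bp below it and 2633 bp above it. Of the 11564 top-scoring H3K4me3 regions, 2.59% were wholly covered by H3K27me3 of any score. The second was covered over 70.7% of its length. Its H3K27me3 region (chr2:71381642-71384485, 2844 bp, score 2227.45) began 290 bp below it and ended inside it. That left 1057 bp of H3K4me3 without H3K27me3 at its upper end, and the next H3K27me3 region began 1887 bp beyond that end. The third had no H3K27me3 and lay 27928 bp above the nearest H3K27me3 region of the window. The nearest in the whole list began 11.1 kb above the third, beyond the upper end of the window. Of the 14635 H3K4me3 regions with no overlap in the series, 43.5% were closer than 11.1 kb to an H3K27me3 region.

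The Dlx5-Dlx6 regions shared a single state. The close pair lay inside 1 top-scoring H3K27me3 region of 8949 bp (chr6:6807631-6816579). It reached 4826 bp below the first and 2552 bp above the second. The third lay inside another top-scoring H3K27me3 region of 6601 bp (chr6:6827681-6834281), which reached 3489 bp below it and 1709 bp above it. A top-scoring H3K27me3 region was thus touched by 1 of 3 H3K4me3 regions at Dlx1-Dlx2 and by 3 of 3 at Dlx5-Dlx6, against 7.71% of all H3K4me3 regions and 23% of those with H3K27me3.

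**Figure D2:**
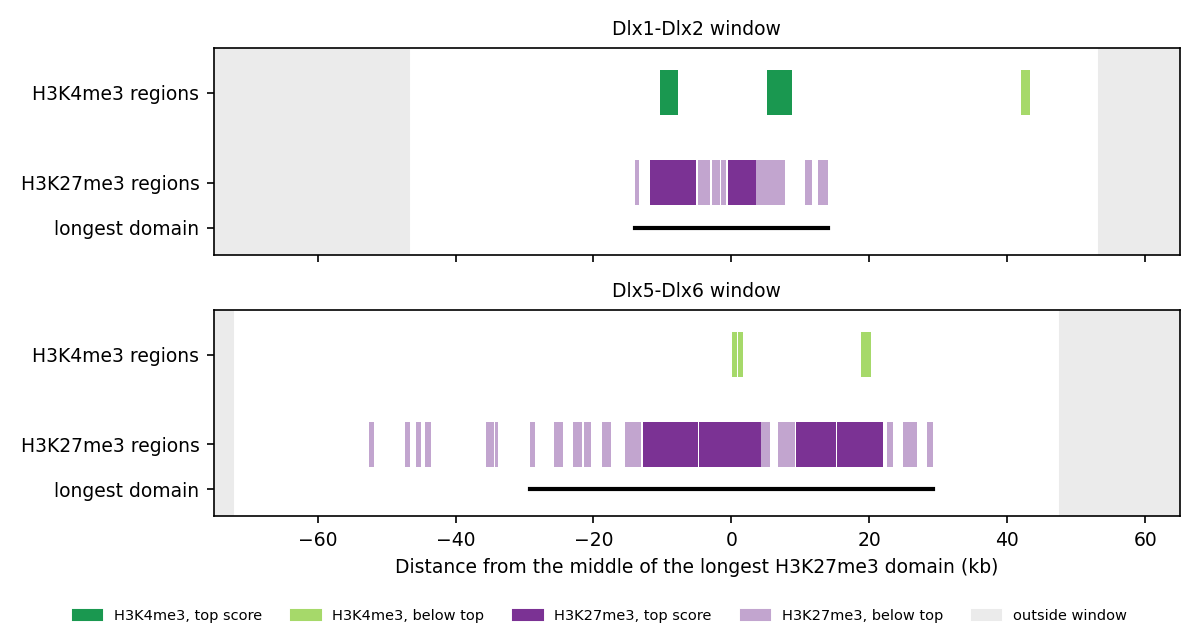
H3K4me3 regions, H3K27me3 regions and the longest H3K27me3 domain of the Dlx1-Dlx2 window (top) and the Dlx5-Dlx6 window (bottom), drawn to scale by distance in kb from the middle of that domain; dark colours mark the top score and grey lies outside the window. At Dlx1-Dlx2 the second H3K4me3 region runs 1057 bp past its H3K27me3 region. The third lies 27928 bp above the nearest H3K27me3 region of the window. A nearer one, 11.1 kb above the third, is outside the window and not drawn. All 3 at Dlx5-Dlx6 lie inside H3K27me3 regions.

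H3K27me3 took up less of the Dlx1-Dlx2 window than of the Dlx5-Dlx6 window. It covered 21.5% of the Dlx1-Dlx2 window in 10 regions and 41.1% of the Dlx5-Dlx6 window in 22 regions. In length this was 21.5 kb at Dlx1-Dlx2 and 49.3 kb at Dlx5-Dlx6, so the Dlx1-Dlx2 length was 0.437 times that of Dlx5-Dlx6. The shares depend on where the windows end. For each base pair in H3K4me3 regions there were 2.90 bp in H3K27me3 regions at Dlx1-Dlx2 and 16.9 bp at Dlx5-Dlx6. Over the whole lists, H3K27me3 regions summed to 150.7 Mb and H3K4me3 regions to 47.9 Mb, a balance much nearer that of Dlx1-Dlx2. H3K4me3 lay on 23.4% of the H3K27me3 base pairs at Dlx1-Dlx2 and on 5.93% of those at Dlx5-Dlx6. In 5 kb steps across the windows, 13 of 20 steps had no H3K27me3 at Dlx1-Dlx2, against 7 of 24 at Dlx5-Dlx6. Cover reached 90% in 2 steps at Dlx1-Dlx2 and in 5 at Dlx5-Dlx6.

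Single H3K27me3 regions were wider than the list's median in 8 of 10 cases at Dlx1-Dlx2 and in 14 of 22 at Dlx5-Dlx6. Their median width was 1366.5 bp at Dlx1-Dlx2 (587 to 6667 bp) and 1162.5 bp at Dlx5-Dlx6 (555 to 8949 bp), against 878 bp over the whole list. Top-scoring regions numbered 2 of 10 at Dlx1-Dlx2 and 4 of 22 at Dlx5-Dlx6, against 2.55% of the list. These few regions held 49.6% of the H3K27me3 base pairs at Dlx1-Dlx2 and 59.2% at Dlx5-Dlx6. Top-scoring H3K27me3 regions were wide across the whole list, with a median of 5672 bp against 867 bp below the top score. A large share of base pairs in few such regions is thus not particular to these windows. The 3 widest at Dlx1-Dlx2 were the regions of 6667 and 2844 bp already described and one of 4030 bp between the first and second H3K4me3 regions (chr2:71376319-71380348). The 3 widest at Dlx5-Dlx6 were those of 8949 and 6601 bp and one of 7945 bp just below the close pair (chr6:6799507-6807451), and 0.757% of H3K27me3 regions were as wide as the last or wider. H3K27me3 regions that shared base pairs with H3K4me3 numbered 2 of 10 at Dlx1-Dlx2 and 2 of 22 at Dlx5-Dlx6, against 7.08% of the list.

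The weak end of the scores differed between the windows. At Dlx1-Dlx2 all 10 H3K27me3 regions scored above the list's median of 112.08, the lowest at 126.27. At Dlx5-Dlx6 14 of 22 did, and the lowest was 50.15, close to the lowest score in the list at 50. Of the 8 weaker Dlx5-Dlx6 regions, 4 lay below the longest domain and 4 inside it.

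**Figure D3:**
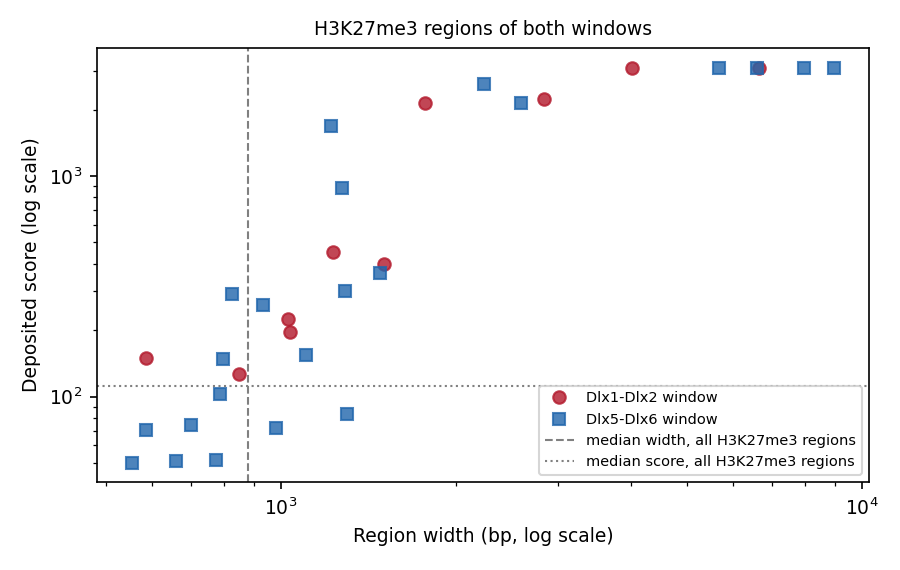
Width (x axis, bp, log scale) and deposited score (y axis, log scale) of the 10 H3K27me3 regions of the Dlx1-Dlx2 window and the 22 of the Dlx5-Dlx6 window; broken lines give the medians of all 117512 regions. The top-scoring regions, 2 at Dlx1-Dlx2 and 4 at Dlx5-Dlx6, are from 4030 to 8949 bp wide, and only Dlx5-Dlx6 has points under the median score of 112.08.

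H3K27me3 formed a shorter domain at Dlx1-Dlx2 than at Dlx5-Dlx6, with a similar share of each in called regions. Domains were made by joining regions with gaps of up to 3000 bp. At Dlx1-Dlx2 all 10 regions fell into 1 domain of 28.0 kb (chr2:71362744-71390762), of which 76.9% lay in called regions. It ended in stretches without any H3K27me3 region of 35.2 kb below and 40.3 kb above. The first H3K4me3 region lay 3714 bp from its lower end and the second 5220 bp from its upper end, so they stood near opposite ends of the domain. At Dlx5-Dlx6 the longest domain spanned 58.5 kb (chr6:6783063-6841557) with 16 regions over 76.3% of it. The close pair of H3K4me3 regions lay near its middle, 29394 bp from the lower end and 27530 bp from the upper end. The third lay nearer the upper end, at 8985 bp from it.

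Below the Dlx5-Dlx6 domain 3 shorter ones followed at gaps of 4.54, 8.05 and 4.49 kb. They were 1743, 3722 and 701 bp long and carried no H3K4me3. Beyond them no H3K27me3 region lay for 87.7 kb, and above the longest domain there was none for 46.8 kb. From the first to the last H3K27me3 region the mark reached over 28.0 kb at Dlx1-Dlx2 and 81.7 kb at Dlx5-Dlx6.

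Set against all 53714 domains, both were long. A length as great or greater was reached by 1186 domains for Dlx1-Dlx2 and by 305 for Dlx5-Dlx6, and domains of 10 kb or more had a median of 18.0 kb. Of the 4467 domains of 10 kb or more, 42.5% held H3K4me3. Among the 784 domains of 0.8 to 1.2 times the length of the Dlx1-Dlx2 domain, 48.1% held H3K4me3 and 14.3% held at least 2 regions of it, as that domain does. Among the 276 domains of 0.8 to 1.2 times the length of the Dlx5-Dlx6 domain, 63.4% held H3K4me3 and 12.3% held at least 3 regions. With H3K4me3 joined over gaps of up to 1000 bp, the Dlx5-Dlx6 domain held 2, and 25.4% of these 276 domains held at least 2. Called regions filled a median of 69.4% of the domains like that of Dlx1-Dlx2 and 73.9% of those like that of Dlx5-Dlx6.

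The difference in reach depended on how regions were joined. With gaps of up to 1000 bp the longest domain was 19.6 kb at Dlx1-Dlx2 (chr2:71364912-71384485, 94.1% in called regions) and 20.9 kb at Dlx5-Dlx6 (chr6:6796914-6817838, 97.3%). The Dlx1-Dlx2 block held the first H3K4me3 region whole and overlapped the second. The Dlx5-Dlx6 block held the close pair only, and a second block of 16.7 kb (chr6:6819015-6835699) held the third. From 1500 to 10000 bp the Dlx1-Dlx2 domain was between 0.343 and 0.487 times as long as the Dlx5-Dlx6 one, and at 500 and 1000 bp it was 0.935 times as long. At 1000 bp, 2 of 3 H3K4me3 regions at Dlx1-Dlx2 thus touched 1 H3K27me3 block and the third touched none, while the 3 at Dlx5-Dlx6 lay in 2 blocks.

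**Figure D4:**
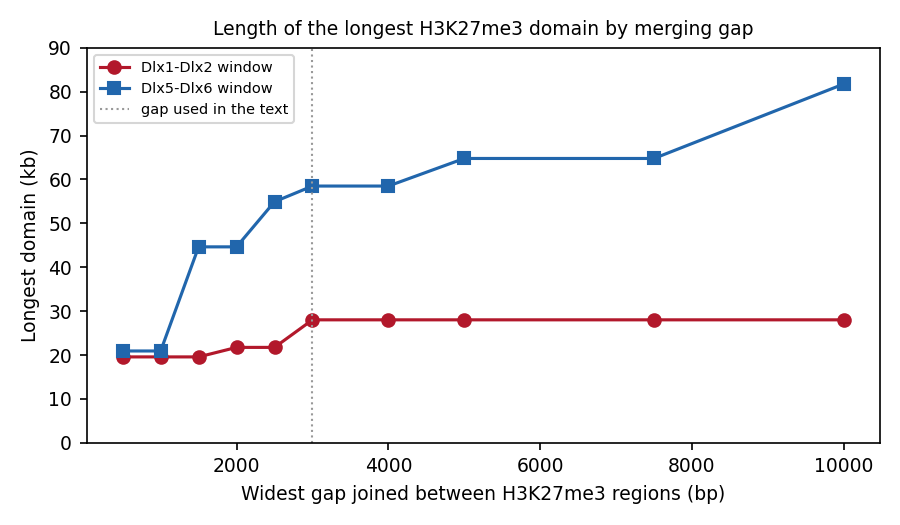
Length of the longest H3K27me3 domain (y axis, kb) in the Dlx1-Dlx2 and Dlx5-Dlx6 windows when regions are joined over gaps up to the value on the x axis (bp); the dotted line marks 3000 bp. The Dlx1-Dlx2 line stays between 19.6 and 28.0 kb, while the Dlx5-Dlx6 line starts at 20.9 kb and reaches 81.7 kb.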

How the data were processed

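The labels name 1 library each for H3K4me3, H3K27me3 and input DNA, and groups follow the antibody or, for the input, the title. Per mark, the authors deposited 1 list of regions, each with a score and a MACS peak name. The submitters' processing notes name Bowtie 1.1.2 and build mm9. How MACS was run (version, threshold, read filters, input as control) is not given in the sources used here, so which weak regions were kept is not known. Read depth is unknown, and no interval or detection limit is given. Nothing says how many animals or cultures each library holds.

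Positions were turned to counts from 1. Overlap was at least 1 bp, and H3K27me3 domains joined gaps of up to 3000 bp. Ranks are over the whole list. Every H3K4me3 region of both windows is named, with the 3 widest H3K27me3 regions of each window and each domain of 10 kb or more or with H3K4me3. The other domains, the 1000 bp blocks and the lowest scores were named after their values were seen. The members and lists were chosen with earlier results of these data known. Python 3.11.15, NumPy 2.4.6, pandas 2.3.3 and matplotlib 3.10.9 were used. Overlaps were tested on simulated data, and their count differed by 0 from bedtools 2.31.1.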

Additional observations from a re-analysis of the deposited data

How the results depend on the processing

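The number of H3K4me3 regions was 3 in each window when only regions wholly inside counted and when windows were widened by 20 kb. The 2 overlaps at Dlx1-Dlx2 and 3 at Dlx5-Dlx6 held with at least 200 bp or 50% of the region shared, with H3K27me3 merged and with wider windows. In the upper 50% of scores, which for H3K4me3 is the top score, Dlx1-Dlx2 had 2 regions, both with H3K27me3, a median width of 3049.5 bp and an unchanged cover and reach. Dlx5-Dlx6 then had 0 H3K4me3 regions and 0 overlaps by construction, so its width had no value, with a cover of 35.8% and a reach of 44.6 kb. Joining H3K4me3 over 1000 bp gave a median width of 2488 bp at Dlx1-Dlx2 and 1487 bp at Dlx5-Dlx6. Cover was 17.3% at Dlx1-Dlx2 and 30.8% at Dlx5-Dlx6 in widened windows, and 28.0% and 53.9% with merged H3K27me3. Reach at Dlx1-Dlx2 was 19.6 kb with a gap of 1000 bp and 21.7 kb with 2000 or 2500 bp, and did not change at 5000 or 10000 bp. Reach at Dlx5-Dlx6 was 20.9 kb at 1000 bp, 44.6 kb at 2000 bp, 54.9 kb at 2500 bp, 64.8 kb at 5000 bp and 81.7 kb at 10000 bp. The gaps of 2000, 2500 and 5000 bp were chosen after seeing the data, as were the further gaps plotted and the count of joined H3K4me3 regions per domain. The 28.0 kb at Dlx1-Dlx2 rests on a gap of 2944 bp, just under the limit. No paired analysis was possible because there are no replicate libraries.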

Other observations

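In both windows a pair of neighbouring H3K27me3 regions was separated by a single base pair. At Dlx1-Dlx2 the region that ends at 71380348 was followed by one that starts at 71380350, and at Dlx5-Dlx6 the region that ends at 6838669 was followed by one that starts at 6838671. Of the 117481 consecutive pairs in the list, 76 (0.0647%) had 1 bp between them. The Dlx1-Dlx2 pair joins a top-scoring region to one with a score of 453.85, and the Dlx5-Dlx6 pair joins scores of 361.71 and 70.56. This was noticed in the data and was not tested.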
